A study of Mus musculus with 9 samples.

Results

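The neuropeptides that carry stress signals in the brain, and the receptors that receive them, were represented by 10 genes chosen by symbol: the peptide genes Crh, Adcyap1 and Nts, the receptor genes Crhr1, Adcyap1r1, Oxtr, Npy1r, Oprk1 and Oprl1, and Crhbp, which encodes a secreted protein that binds CRH. All 10 were among the 24532 genes listed for every mouse, and 9 of them averaged at least 30 reads per mouse, which was required for the test. Nts, at an average of 20 reads, was below that floor. Bulk RNA from the medial prefrontal cortex (mPFC) was measured in 9 male mice, 3 in each group, whose strain is C57BL/6 by the labels and C57BL/6J by the methods. CT mice were wild-type and stayed in their home cages. WT_ST mice were wild-type and KO_ST mice were Fkbp5-/-, and both were restrained in a latex glove for 6 h per day over 3 weeks. Per the study's methods, the Fkbp5-/- line had been backcrossed to C57BL/6J for 10 generations, the mice came from heterozygous matings, and CT mice went without food and water during the hours of restraint, as the stressed mice did. The labels give an age of 11 weeks and the methods an age of 8 weeks. No unstressed Fkbp5-/- mice were among the samples analysed here, so in KO_ST against CT the genotype and the stress cannot be told apart.

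Corticotropin-releasing hormone (CRH) starts the hormonal stress response in the hypothalamus, and in the cortex it is made by local interneurons and acts on nearby cells through CRHR1, a receptor that raises cAMP. PACAP, the product of Adcyap1, acts in a similar way through PAC1, the product of Adcyap1r1, and can drive CRH neurons. The other receptors read further peptides that shape the response to stress: oxytocin (Oxtr), neuropeptide Y (Npy1r), dynorphin (Oprk1) and nociceptin (Oprl1). Neurotensin (Nts) is a peptide of limbic and hypothalamic neurons that modulates dopamine signaling. Fkbp5 encodes FKBP51, a co-chaperone that lowers the sensitivity of the glucocorticoid receptor.

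The upstream regions of Nts and Adcyap1 are shown because these were the peptide genes whose levels differed most between mice. RefSeq windows on GRCm38.p6 were found for 8 of the 10 genes. Each sequence is the 250 bases before a transcription start site, read 5′ to 3′ along the gene, and capitals mark the core of the cAMP response element, TGACG or on the other strand CGTCA. The Nts window lies at chr10:102490419-102490668 on the minus strand, with the core starting 166 bases before the start site. The Adcyap1 window, at chr17:93198767-93199016 on the plus strand, has its core starting 91 bases before the first of 2 annotated start sites.
Nts: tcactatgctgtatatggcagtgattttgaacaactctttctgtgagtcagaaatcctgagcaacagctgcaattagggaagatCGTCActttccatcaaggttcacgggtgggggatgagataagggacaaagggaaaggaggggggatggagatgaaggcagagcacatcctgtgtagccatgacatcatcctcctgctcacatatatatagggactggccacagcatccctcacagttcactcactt
Adcyap1: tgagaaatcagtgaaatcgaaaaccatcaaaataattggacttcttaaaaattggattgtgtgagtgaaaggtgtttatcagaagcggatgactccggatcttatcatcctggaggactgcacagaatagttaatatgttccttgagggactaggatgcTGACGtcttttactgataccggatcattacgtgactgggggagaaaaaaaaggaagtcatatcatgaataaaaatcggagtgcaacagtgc
The core was present in 17.8% of the 32851 windows of that length over all genes, counting both strands, and in a window of 3 of the 8 genes with one, Adcyap1, Crhbp and Nts. The full 8-base element TGACGTCA occurred in 1.55% of all windows and in none of these. TGTTCT, a core bound by the glucocorticoid receptor, was found in 16.1% of all windows and in windows of Oprl1 only. These matches describe letters and were not tested for binding.

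Each mouse contributed 43778471 to 61150128 reads assigned to genes. Fkbp5 was measured at 7.61, 6.46 and 7.28 FPKM (sequenced fragments normalized to transcript length and library size) in CT, at 9.83, 9.47 and 10.3 in WT_ST and at 3.59, 4.69 and 4.45 in KO_ST. Every KO_ST mouse was below every wild-type mouse (log2 fold change -1.04, SE 0.087, against WT_ST; limma, Benjamini-Hochberg adjusted p = 0.00908), but 625 to 907 reads remained, and where they lie within the gene was not examined. Markers of cortical excitatory neurons were abundant in every mouse, with Slc17a7 at a mean of 632 FPKM and Tbr1 at 52.4, and the summed level of the 5 such markers overlapped between the groups. The sum of 8 GABA neuron markers (Vip among them), of the cell class that also makes Crh and Npy in the cortex, also overlapped, at 471 to 589 FPKM in CT, 533 to 585 in WT_ST and 578 to 581 in KO_ST. In KO_ST against CT all 8 had a positive log2 fold change (median 0.17), and Gad1, Gad2, Slc32a1 and Pvalb were higher in all KO_ST than in all CT mice. Of the 8, 4 had an unadjusted p under 0.05 and 1 met the criterion for differential expression (defined with the comparisons). In WT_ST against CT, 6 of the 8 had a positive log2 fold change (median 0.14), 2 had an unadjusted p under 0.05 and 0 met the criterion. The part of these cells in the values below was not tested. The summed level of 4 microglia markers was 71.5 to 86.2 FPKM in CT, 53.3 to 62.9 in WT_ST and 27.1 to 62.3 in KO_ST, and that of 3 endothelial markers was 30.7 to 36.03, 24.5 to 29.7 and 22.5 to 28.3. Both sums were thus lower in all stressed mice than in all CT mice. All 4 microglia markers met the criterion as lower in WT_ST and in KO_ST against CT (median log2 fold change -0.40 and -0.79), as did 1 of the 3 endothelial markers in each comparison. The sum of 6 striatal markers was 46.1 to 55.04 FPKM in CT, 55.6 to 68.9 in WT_ST and 46.6 to 56.7 in KO_ST, higher in all WT_ST than in all CT mice, and 3 of the 6 met the criterion as higher in WT_ST. The sum of 4 astrocyte markers was 177 to 204 FPKM in CT, 161 to 165 in WT_ST and 154 to 193 in KO_ST, lower in all WT_ST than in all CT mice. That list was split: Slc1a3 and Aqp4 met the criterion as lower in WT_ST, while Gfap (21.2 FPKM on average in CT and 24.8 in WT_ST) and Aldh1l1 (18.3 and 20.2) had higher means with overlapping groups. In bulk RNA, fewer cells of a type and less RNA per cell cannot be told apart.

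The highest levels among the 10 genes were those of receptors and of Crhbp, and the lowest was that of a peptide gene. The mean level over the 9 mice was highest for Adcyap1r1 at 34.2 FPKM, followed by Oprl1 at 18.6, Crhbp at 13.9, Crhr1 at 13.2, Npy1r at 12.4, Adcyap1 at 9.38, Crh at 2.13, Oxtr at 1.97, Oprk1 at 1.54 and Nts at 0.345. Only 3 pairs of neighbors in this order had ranges over the mice that did not overlap: Adcyap1r1 over Oprl1, Oprl1 over Crhbp, and Adcyap1 over Crh. Crhbp, Crhr1, Npy1r and Adcyap1 overlapped with their neighbors, with Crhbp above Crhr1 in 5 of 9 mice and Crhr1 above Npy1r in 7. Crh, Oxtr, Oprk1 and Nts overlapped likewise, but Oprk1 was above Nts in each of the 9 mice.

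**Figure D1:**
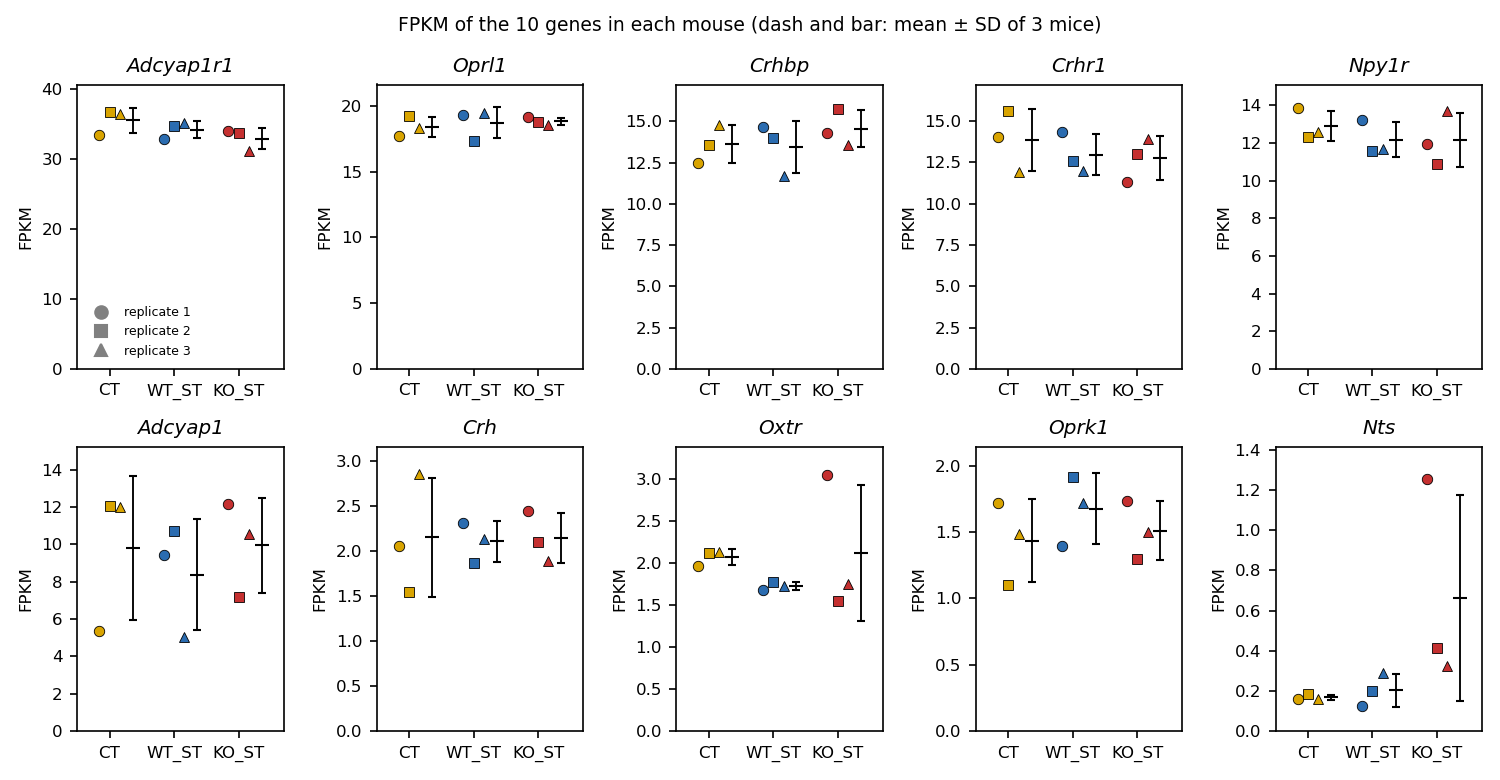
FPKM (vertical axis, starting at 0) of the 10 genes in each mouse of CT, WT_ST and KO_ST, with a symbol per replicate number and the mean ± SD of 3 mice beside each group. The groups overlap for most genes. The Oxtr values of WT_ST lie below those of CT, 1 KO_ST mouse stands above the rest for Oxtr (3.04 FPKM), and the Nts values of KO_ST (0.323 to 1.25 FPKM) lie above all others.

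The mice of a group differed by very unequal amounts from gene to gene. The pooled within-group coefficient of variation was 4.44% for Oprl1 and 4.504% for Adcyap1r1, below the median of 8.04% over the 14370 tested genes. It was 8.76% for Npy1r, 9.29% for Crhbp, 11.4% for Crhr1 and 17.4% for Oprk1. Crh, at 20.4%, and Oxtr, at 23.9%, varied more. Adcyap1 varied by 33.9%, where counting error alone gives 2.56%, and its within-group SD on the log2 scale was higher than that of 98.8% of tested genes. Nts reached 86.9%, on few reads.

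None of the 9 tested genes met the criterion for a differentially expressed gene (DEG), an unadjusted p under 0.05 with a fold change above 1.2, in any of the 3 comparisons (limma). Fold changes from limma are those of FPKM + 1, which are smaller than those of FPKM for genes at low levels. Of all 14370 tested genes, 2.47% met it in WT_ST against CT, 3.56% in KO_ST against CT and 2.0% in KO_ST against WT_ST, so that a set of 9 genes would hold fewer than 1 at these rates. The lowest Benjamini-Hochberg adjusted p among the 9 genes was 0.635, 0.587 and 0.940 in the same order. At an unadjusted p under 0.05 there was 1 gene, Oxtr, in WT_ST against CT, and there were 0 in the other comparisons. The median log2 fold change of the 9 genes was -0.058, 0.039 and 0.013, beside 0.0034, 0.0024 and -0.0015 over all tested genes. The groups did not overlap in FPKM for 1 of the 9 genes in WT_ST against CT, 0 in KO_ST against CT and 0 in KO_ST against WT_ST, where 14.0%, 16.5% and 11.1% of tested genes did not overlap. Without quantile normalization the share of DEGs that were higher in the stressed group was 34.1% in place of 46.8% in WT_ST against CT, and 28.5% in place of 43.2% in KO_ST against CT, and still none of the 9 genes was among them. KO_ST and WT_ST are each compared with the same CT mice.

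**Figure D2:**
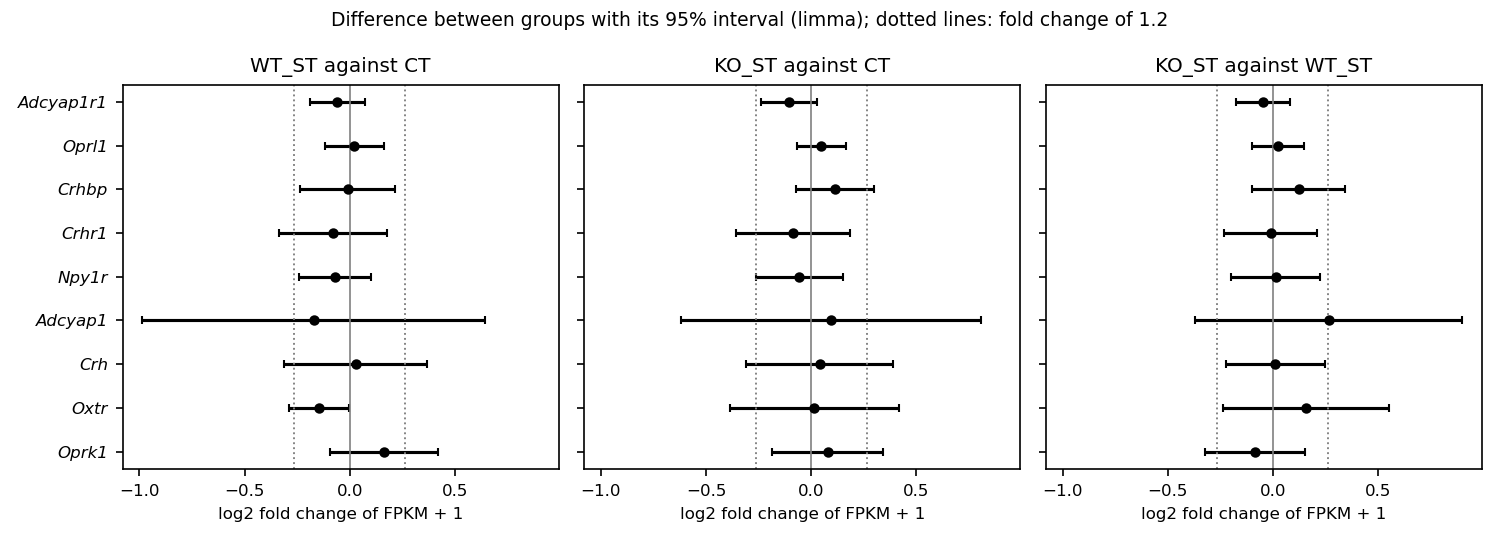
Log2 fold change of FPKM + 1 (horizontal axis) of the 9 tested genes in the 3 comparisons, as points with 95% intervals from limma, with dotted lines at a fold change of 1.2 either way. The intervals of Adcyap1r1 and Oprl1 stay between the dotted lines in all 3 comparisons. Adcyap1 has the widest intervals, and only the interval of Oxtr in WT_ST against CT leaves out 0.

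Crh (chr3:19693401-19695396), the gene of the CRH peptide, was measured at 2.06, 1.54 and 2.85 FPKM in CT, at 2.31, 1.87 and 2.13 in WT_ST and at 2.44, 2.1 and 1.88 in KO_ST. The CT mice held both the lowest and the highest value, and the stressed mice lay between them. The group means were nearly equal, at 2.15 ± 0.66 (SD, n = 3), 2.11 ± 0.22 and 2.14 ± 0.28 FPKM. The difference between WT_ST and CT was 0.028 on the log2 scale with a 95% interval from -0.31 to 0.37, and that between KO_ST and WT_ST was 0.011 with an interval from -0.22 to 0.25 (limma, adjusted p = 0.974 and 0.991). As fold changes of FPKM + 1, these intervals reach 0.81 to 1.29 and 0.86 to 1.19. For the FPKM of a gene at this level the range is wider. With 111 to 189 reads per mouse, a smaller change in Crh was not detectable at this depth and number of mice.

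Crhr1 (chr11:104130463-104175523) encodes the main CRH receptor of the cortex. It stood at 14.1, 15.6 and 11.9 FPKM in CT, 14.4, 12.6 and 11.98 in WT_ST and 11.3, 13.0 and 13.9 in KO_ST. The highest mouse was in CT and the lowest in KO_ST, and the groups overlapped throughout. The log2 fold change was -0.078 (SE 0.109) in WT_ST against CT, -0.087 (SE 0.115) in KO_ST against CT and -0.0092 (SE 0.094) in KO_ST against WT_ST. Without the second CT mouse the first 2 of these became 0.011 and 0.0018.

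Crhbp (chr13:95431376-95444831), which encodes a protein that binds CRH and keeps it from its receptors, was at 12.5, 13.6 and 14.8 FPKM in CT, 14.6, 14.0 and 11.7 in WT_ST and 14.3, 15.8 and 13.6 in KO_ST. The highest value was from a KO_ST mouse, and every group held a value above 14. KO_ST was at a log2 fold change of 0.11 (95% interval -0.075 to 0.30) to CT and of 0.12 (-0.10 to 0.34) to WT_ST, with adjusted p = 0.677 and 0.940 by limma. The peptide, its receptor and its binding protein were thus each measured with overlapping groups.

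Adcyap1 (chr17:93198245-93206541), the PACAP gene, was at 5.34, 12.1 and 12.02 FPKM in CT, 9.41, 10.7 and 5.02 in WT_ST and 12.1, 7.16 and 10.6 in KO_ST. Each group held 1 mouse well below its other mice: the first CT mouse, the third WT_ST mouse and the second KO_ST mouse. The reads ranged from 621 to 2224 per mouse, so counting error is small beside these differences. The means of 9.80 ± 3.87, 8.38 ± 2.98 and 9.96 ± 2.55 FPKM (SD, n = 3) gave log2 fold changes of -0.17 (SE 0.35) in WT_ST against CT, 0.094 (SE 0.30) in KO_ST against CT and 0.27 (SE 0.27) in KO_ST against WT_ST. Their 95% intervals, as fold changes of FPKM + 1, ran from 0.51 to 1.56, from 0.65 to 1.75 and from 0.77 to 1.87. The direction rested on single mice: without the third WT_ST mouse the difference between WT_ST and CT was 0.12 and that between KO_ST and WT_ST was -0.028, and without the first CT mouse that between KO_ST and CT was -0.25.

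Adcyap1r1 (chr6:55451501-55501455) encodes PAC1, the receptor of PACAP. Its values were 33.5, 36.8 and 36.4 FPKM in CT, 32.8, 34.7 and 35.1 in WT_ST and 34.0, 33.7 and 31.2 in KO_ST. The lowest mouse was in KO_ST and the highest in CT, with overlap between all groups. The log2 fold change was -0.058 (SE 0.056), -0.10 (SE 0.057) and -0.047 (SE 0.055) in WT_ST against CT, KO_ST against CT and KO_ST against WT_ST, and the lowest adjusted p was 0.587 (limma). With 9423 to 13016 reads per mouse and a narrow spread, the 95% intervals of the fold change were 0.88 to 1.05, 0.85 to 1.02 and 0.89 to 1.06, none of which reached 1.2-fold in either direction.

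Nts (chr10:102481756-102490418), the neurotensin gene, was low in wild-type mPFC and was higher in the KO_ST mice. It was at 0.161, 0.183 and 0.161 FPKM in CT (12, 12 and 10 reads), at 0.124, 0.199 and 0.287 in WT_ST (8, 12 and 16 reads) and at 1.25, 0.414 and 0.323 in KO_ST (67, 23 and 20 reads). All KO_ST mice stood above all wild-type mice, and the first KO_ST mouse stood far above the other two. Because of the floor on reads Nts had no place in the limma test. An edgeR quasi-likelihood test of the reads of all 19197 genes with any reads, added after these values were seen, placed KO_ST above CT by 1.95 on the log2 scale (unadjusted p = 0.0115, Benjamini-Hochberg adjusted p = 0.592) and above WT_ST by 1.66 (unadjusted p = 0.0295, adjusted p = 0.932). Both met the DEG criterion, as did 4.39% and 2.83% of all genes in that test, and neither passed the adjustment. WT_ST against CT gave 0.30 (unadjusted p = 0.567). Without the first KO_ST mouse both fell short of the criterion, at 1.10 (unadjusted p = 0.0528) and 0.81 (unadjusted p = 0.167), and the second also did so without the first WT_ST mouse (1.40, unadjusted p = 0.0870) or without the second (1.63, unadjusted p = 0.0715). In limma with no floor on reads, the differences on the log2(FPKM + 1) scale were 0.48 (unadjusted p = 0.0728) and 0.43 (unadjusted p = 0.106).

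The first KO_ST mouse also had the highest summed level of 4 septal markers, 13.0 FPKM beside 9.90 to 11.5 in the other mice, with Zic1 at 4.29. Of 3 olfactory bulb markers it had the highest Cdhr1, at 2.56 FPKM, which made up nearly all of their sum of 2.59, but Eomes was at 0.012 FPKM there and at 0.0535 to 0.158 in WT_ST. It was the only mouse with reads on Oxt (5 reads). Of 6 hypothalamic markers, Oxt, Avp, Hcrt, Pmch and Agrp averaged at most 0.14 FPKM and Pomc averaged 0.65, with the sum at 0.955 to 1.29 in KO_ST, 0.747 to 1.10 in WT_ST and 0.778 to 1.05 in CT. The striatal sum was 52.97 FPKM in that mouse and 46.1 to 68.9 over all mice. Of the 4 septal markers, 0 met the DEG criterion in KO_ST against CT or in KO_ST against WT_ST. Their median log2 fold change was 0.16 against CT, where Trpc4 was higher in all KO_ST mice and 1 of the 4 had an unadjusted p under 0.05. It was 0.12 against WT_ST, where Zic1 and Zic4 were higher in all KO_ST mice. The part of neighboring tissue in the Nts level was not tested.

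**Figure D3:**
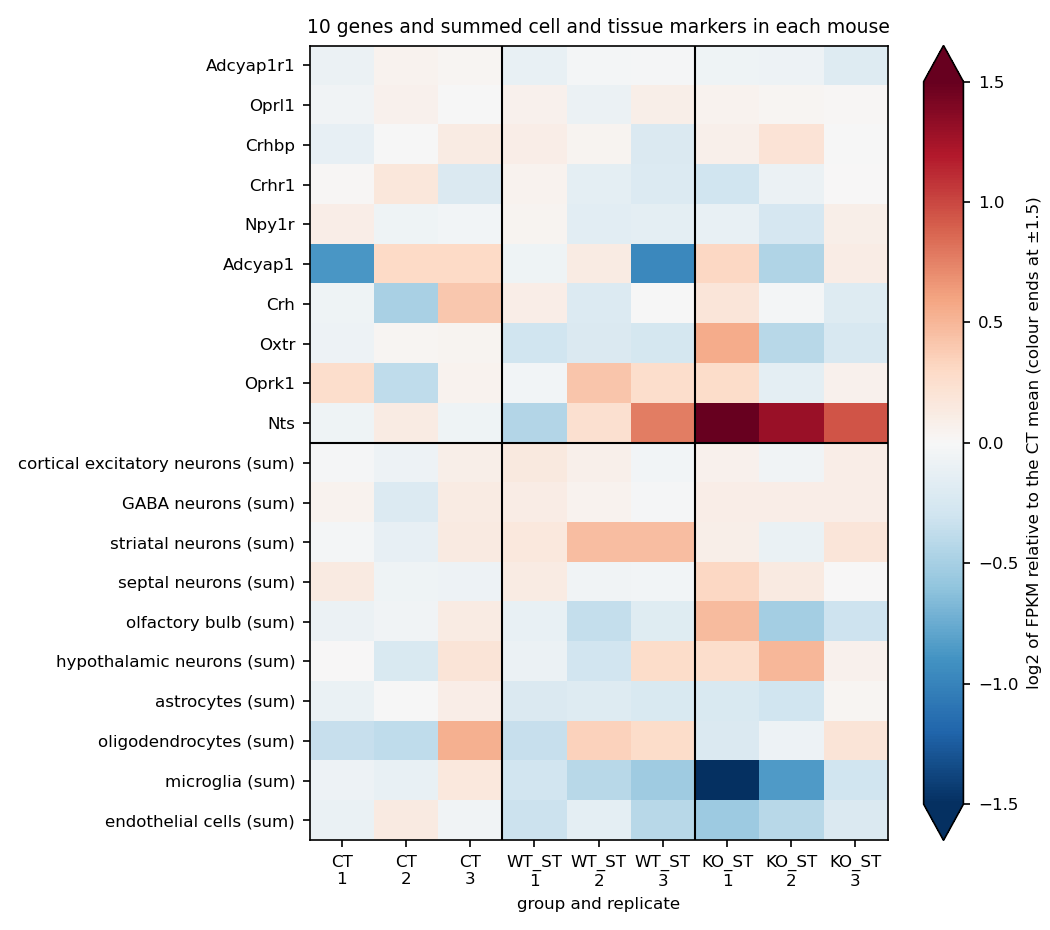
Log2 of FPKM relative to the CT mean (color, ending at ±1.5) for the 10 genes and for the summed markers of 10 cell and tissue types, with a column for each mouse. Nts is highest in the 3 KO_ST columns, Adcyap1 is lowest in the first CT and the third WT_ST mouse, and the first KO_ST mouse combines the highest Nts, Oxtr and septal values with the lowest microglia sum (27.1 FPKM).

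Oxtr (chr6:112473683-112491035), the oxytocin receptor gene, was at 1.97, 2.11 and 2.13 FPKM in CT and at 1.68, 1.77 and 1.73 in WT_ST. All WT_ST mice were below all CT mice and the mice of each group lay close together. The difference was -0.14 on the log2(FPKM + 1) scale (SE 0.061, 95% interval -0.29 to -0.0010), with an unadjusted p of 0.0488 and an adjusted p of 0.635 (limma). Its size on that scale was below the 1.2-fold of the DEG criterion. The group means were 2.07 FPKM in CT and 1.73 in WT_ST, and at so low a level the added 1 makes the difference smaller than that of the FPKM. In the same comparison the microglia, endothelial and astrocyte sums given above were lower and the striatal sum was higher in every WT_ST mouse than in every CT mouse, and their part in the Oxtr difference was not tested. KO_ST mice were at 3.04, 1.55 and 1.75 FPKM, so that the first KO_ST mouse was above all CT mice and the other two were below them. KO_ST against CT gave 0.014 (SE 0.17) with all mice and -0.20 without the first KO_ST mouse (unadjusted p = 0.0456, below 1.2-fold on the FPKM + 1 scale). KO_ST against WT_ST likewise went from 0.16 (SE 0.17) to -0.052. The ligand genes of this system, Oxt and Avp, averaged 0.022 and 0.050 FPKM over the 9 mice, and the vasopressin receptor gene Avpr1a averaged 0.157.

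Lnpep, which encodes an aminopeptidase that cleaves oxytocin and vasopressin, was the only gene of the oxytocin and vasopressin list above the floor on reads. It was at 2.59, 2.12 and 0.649 FPKM in CT, 0.569, 1.33 and 1.75 in WT_ST and 1.91, 2.92 and 0.682 in KO_ST. The mice of each group lay far apart and the groups overlapped. Lnpep differed on the log2 scale by -0.27 (SE 0.32) in WT_ST against CT, 0.051 (SE 0.39) in KO_ST against CT and 0.32 (SE 0.33) in KO_ST against WT_ST, with an adjusted p of 0.851, 0.982 and 0.953 by limma. The criterion was met in WT_ST against CT without the third CT mouse (-0.62, unadjusted p = 0.0333) and in KO_ST against WT_ST without the third KO_ST mouse (0.67, unadjusted p = 0.0340).

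Npy1r (chr8:66697149-66706800) encodes the Y1 receptor, through which neuropeptide Y dampens stress responses. It was at 13.8, 12.3 and 12.6 FPKM in CT, 13.2, 11.6 and 11.7 in WT_ST and 11.9, 10.9 and 13.7 in KO_ST. The groups overlapped, with the lowest mouse in KO_ST. The log2 fold changes of -0.070 (SE 0.073), -0.057 (SE 0.088) and 0.013 (SE 0.089) were smaller than their errors, and the adjusted p by limma was 0.826, 0.858 and 0.989.

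The opioid-family receptors were unequal in level. Oprk1 (chr1:5588450-5606134), the kappa receptor that dynorphin activates under stress, was at 1.72, 1.10 and 1.49 FPKM in CT, 1.39, 1.92 and 1.72 in WT_ST and 1.74, 1.297 and 1.503 in KO_ST. WT_ST held the highest mouse and CT the lowest, and all groups overlapped. WT_ST stood above CT by 0.16 on the log2 scale (95% interval -0.092 to 0.42), which was the highest among the 9 genes in that comparison, at an adjusted p of 0.726 (limma). Oprl1 (chr2:181715000-181720985), the nociceptin receptor, was at 17.7, 19.2 and 18.3 FPKM in CT, 19.3, 17.4 and 19.5 in WT_ST and 19.1, 18.8 and 18.6 in KO_ST. It was the steadiest of the 10 genes over the mice, from 17.4 to 19.5 FPKM. The 95% intervals of its fold change, 0.92 to 1.12, 0.95 to 1.12 and 0.93 to 1.11, did not reach 1.2-fold in any of the 3 comparisons.

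The wider peptide systems were followed through 48 further genes in 8 lists, of which 35 averaged at least 30 reads per mouse. In WT_ST against CT, 1 of the 35 met the DEG criterion, and 0 did so in KO_ST against CT or in KO_ST against WT_ST. At an unadjusted p under 0.05 there were 4, 1 and 3 genes, and none passed the adjustment (limma). The groups did not overlap for 6, 4 and 3 of them. Their median log2 fold change was 0.023, 0.032 and 0.0057. Given the shares over all tested genes above, nothing particular to these lists is read from the counts.

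The 1 gene that met the criterion was Ntsr1, a neurotensin receptor of cortical and dopamine neurons. It was at 4.16, 6.30 and 6.49 FPKM in CT, 3.89, 4.08 and 3.73 in WT_ST and 3.63, 4.80 and 3.84 in KO_ST. All WT_ST mice were below all CT mice, and 2 of the KO_ST mice were too. The log2 fold change was -0.40 (SE 0.142) in WT_ST against CT, with unadjusted p = 0.0250 and adjusted p = 0.635 (limma). It was -0.34 in KO_ST against CT (unadjusted p = 0.0682). The striatal, microglia, endothelial and astrocyte sums given above also separated WT_ST from CT, and their part in the Ntsr1 difference was not tested. The call in WT_ST against CT was lost in the unmoderated linear model (unadjusted p = 0.0812) and without the second CT mouse (unadjusted p = 0.0819), the third CT mouse (unadjusted p = 0.0781), the first WT_ST mouse (unadjusted p = 0.0527) or the third WT_ST mouse (unadjusted p = 0.0703). In KO_ST against CT a call appeared with all 9 mice in 1 fit (unadjusted p = 0.0386), with the replicate number as a block (unadjusted p = 0.0258), with edgeR (unadjusted p = 0.0477), with DESeq2 (unadjusted p = 0.0166), and without the first CT mouse (-0.51, unadjusted p = 0.00428) or without the second KO_ST mouse (-0.44, unadjusted p = 0.0408).

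The other neurotensin receptor, Ntsr2, which is known from astrocytes, was at 49.4, 52.8 and 63.8 FPKM in CT, 45.1, 44.7 and 48.5 in WT_ST and 48.2, 52.7 and 52.4 in KO_ST. WT_ST lay below both other groups apart from a small overlap with KO_ST. The log2 fold change was -0.25 (SE 0.089) against CT (unadjusted p = 0.0278, adjusted p = 0.635 by limma) and did not reach 1.2-fold. The criterion was met without the first CT mouse (-0.32), the second CT mouse (-0.28) or the third WT_ST mouse (-0.29). Without the third CT mouse the difference was -0.15 (unadjusted p = 0.0453), and without the first or the second WT_ST mouse it was -0.22 or -0.23 (unadjusted p = 0.0805 and 0.0793). The astrocyte sum given above was also lower in WT_ST, though only 2 of its 4 markers were. Its part in the Ntsr2 difference, and that of the other sums that separated WT_ST from CT, was not tested. Sort1, which encodes the sorting receptor sortilin that also binds neurotensin, was at 94.2 FPKM on average, and WT_ST differed from CT by -0.024 on the log2 scale.

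In the CRH family, Crhr2 was at 0.494 ± 0.17 FPKM (SD, n = 3) in CT, 0.471 ± 0.056 in WT_ST and 0.317 ± 0.020 in KO_ST. All KO_ST mice were below all other mice, at a log2 fold change of -0.16 on the FPKM + 1 scale against both groups (limma, unadjusted p = 0.0326 against WT_ST and 0.0991 against CT), which is below 1.2-fold. The difference to WT_ST met the criterion with edgeR on reads (-0.49, unadjusted p = 0.0446, adjusted p = 0.890) and with a pseudocount of 0.1 in place of 1 (-0.44, unadjusted p = 0.0285), but not with DESeq2 (-0.49, unadjusted p = 0.121). The unadjusted p of the limma difference was 0.0651 with all 9 mice in 1 fit and 0.0730 with the replicate number as a block, and it was 0.0669 to 0.0977 without the second or the third mouse of either group. In KO_ST against WT_ST all 6 striatal markers (median log2 fold change -0.28, 2 meeting the criterion) and all 4 microglia markers (median -0.41, 1 meeting it) also had negative differences, and against CT the microglia and endothelial sums separated the groups. Their part in the Crhr2 difference was not tested. The urocortin genes Ucn, Ucn2 and Ucn3, whose peptides bind Crhr2, averaged at most 0.064 FPKM.

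Neuropeptide Y itself was abundant, with Npy at 108 ± 26 FPKM (SD, n = 3) in CT, 113 ± 5.2 in WT_ST and 115 ± 4.3 in KO_ST. Npy2r, its presynaptic receptor, was at 1.49, 1.54 and 2.11 FPKM in WT_ST and at 1.36, 1.26 and 1.24 in KO_ST, and these groups did not overlap. The log2 fold change was -0.24 (limma, unadjusted p = 0.0445, adjusted p = 0.849) and below 1.2-fold. It met the criterion without the first WT_ST mouse (-0.29, unadjusted p = 0.0355), without the second (-0.29, unadjusted p = 0.0400), with edgeR (-0.40, unadjusted p = 0.0377), with DESeq2 (-0.39, unadjusted p = 0.0369) and with a pseudocount of 0.1 (-0.37, unadjusted p = 0.0459). In the unmoderated linear model the unadjusted p was 0.0903, and without any 1 of the KO_ST mice it was 0.0529 to 0.111. Without the third WT_ST mouse it was -0.14 (unadjusted p = 0.118), with all 9 mice in 1 fit the unadjusted p was 0.0612 and with the replicate number as a block 0.0761. The part of the striatal and microglia markers, whose differences had the same sign in that comparison, was not tested for Npy2r. KO_ST against CT gave -0.20 for Npy2r (limma, unadjusted p = 0.0869), and the criterion was met without the second CT mouse (-0.29, unadjusted p = 0.0162). Npy met it in KO_ST against CT without the third CT mouse (0.27, limma, unadjusted p = 0.0454). Npy5r averaged 2.26 FPKM with groups that overlapped.

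Among the opioid peptides, Penk (enkephalin) averaged 26.0 FPKM, Pdyn (dynorphin) 8.71 and Pnoc (nociceptin) 2.90. None of these ligand genes met the criterion, and their groups overlapped in every comparison. Penk had the highest log2 fold change of the lists in WT_ST against CT, 0.30, and in KO_ST against CT, 0.36. It was at 25.1, 12.5 and 31.2 FPKM in CT, 21.3, 27.9 and 31.5 in WT_ST and 33.5, 20.6 and 30.5 in KO_ST. The second CT mouse stood well below all others. The other CT mice lay within the range of the stressed mice, so the size of both differences rested on that 1 mouse. Penk is also abundant in striatal neurons, and the median difference of the 6 striatal markers on the log2 scale was 0.39 between WT_ST and CT, 0.081 between KO_ST and CT and -0.28 between KO_ST and WT_ST. The part of striatal tissue in the Penk values was not tested. Oprd1, the delta receptor, averaged 6.02 FPKM, and it met the criterion only when the first WT_ST mouse was left out, at 0.37 in WT_ST against CT (unadjusted p = 0.00696) and -0.27 in KO_ST against WT_ST (unadjusted p = 0.00789). Vip, which shares receptors with PACAP and marks a class of interneurons, averaged 27.6 FPKM, and Vipr1 averaged 9.997, and both had overlapping groups. Vipr2 averaged 0.164 FPKM and was below the floor on reads.

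Of the enzymes and helpers that process peptide precursors, Pcsk1n had the lowest unadjusted p. The gene encodes proSAAS, an inhibitor of the convertase PCSK1. It was at 136, 140 and 148 FPKM in CT, 125, 125 and 117 in WT_ST and 127, 116 and 120 in KO_ST, so that all stressed mice were below all CT mice. The log2 fold change was -0.20 (SE 0.041, unadjusted p = 0.00149, adjusted p = 0.542) in WT_ST against CT and -0.22 (SE 0.046, unadjusted p = 0.00189, adjusted p = 0.403) in KO_ST against CT by limma, in both below 1.2-fold. Cpe, the carboxypeptidase that trims peptide ends, was also lower in all stressed mice than in CT, at 1021 ± 35 FPKM in CT, 945 ± 15 in WT_ST and 950 ± 8.2 in KO_ST (SD, n = 3), but its log2 fold change was -0.087 in both comparisons (unadjusted p = 0.0553 and 0.102). The microglia and endothelial sums given above also separated all stressed mice from all CT mice, and the striatal and astrocyte sums separated WT_ST from CT. Their part in the Pcsk1n and Cpe differences was not tested. Pcsk2 averaged 141 FPKM and went the other way. It was higher in all KO_ST than in all CT mice (log2 fold change 0.097, unadjusted p = 0.147 by limma), and WT_ST overlapped with CT. Scg5, which helps PCSK2 mature, averaged 124 FPKM.

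The 14 genes of the cAMP relay that CRHR1 and PAC1 drive averaged from 5.34 FPKM (Adcy8, an adenylyl cyclase) to 629 (Gnas, the stimulatory G protein). Next to Gnas the most abundant were Prkar1a at 235 FPKM, Rgs4 at 180 and Prkacb at 157, and each of these 4 had overlapping groups in all comparisons. Of the 14 relay genes, 0 met the criterion in any comparison with all mice. Adcy9, an adenylyl cyclase named after its values were seen, met it in KO_ST against WT_ST without the first KO_ST mouse (-0.29, unadjusted p = 0.0331) or without the third WT_ST mouse (-0.30, unadjusted p = 0.0178), beside -0.21 (unadjusted p = 0.0785) with all mice. Creb1, named because its values stood out, was higher in all WT_ST than in all CT mice (log2 fold change 0.16, limma, unadjusted p = 0.0488, adjusted p = 0.635). The unadjusted p was 0.0698 without quantile normalization, 0.0739 with the replicate number as a block, and 0.0818 to 0.126 when any mouse but the first CT mouse was left out. The striatal, microglia, endothelial and astrocyte sums separated the same groups, and their part in the Creb1 difference was not tested. Creb1 was lower in all KO_ST than in all WT_ST mice (-0.062, limma, unadjusted p = 0.305). KO_ST overlapped with CT (0.10, limma, unadjusted p = 0.202).

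**Figure D4:**
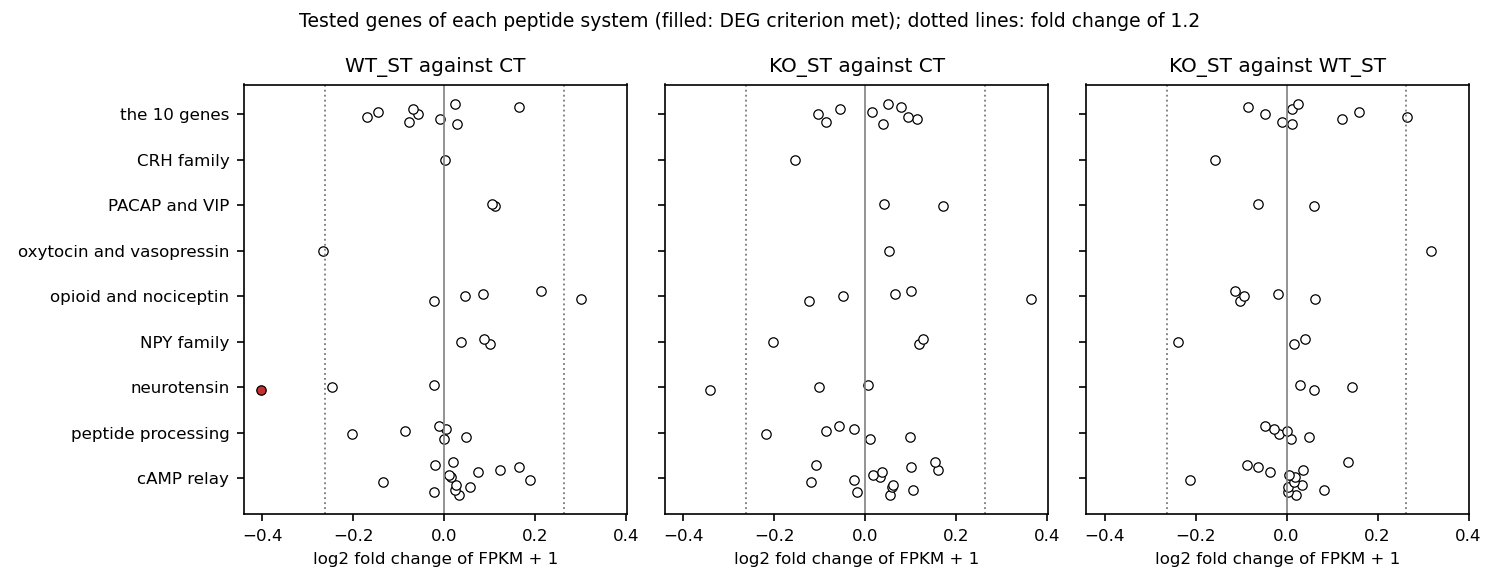
Log2 fold change of FPKM + 1 (horizontal axis) of each tested gene of the 10 genes and of the 8 lists around them in the 3 comparisons, with filled points for genes that met the DEG criterion and dotted lines at a fold change of 1.2 either way. Ntsr1 in WT_ST against CT (-0.40) is the only filled point.

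The genes whose quantile-normalized levels followed each peptide gene most closely over the 9 mice are given as a description. For Crh they were Fhit (Pearson r = 0.961, Spearman rho = 0.950), Bbs2 (0.927 and 0.817) and Coro2b (0.916 and 0.883). For Adcyap1 they were Dnal4 (0.949 and 0.717), Lrch4 (0.944 and 0.717) and Mkln1os (0.939 and 0.767), the last an antisense gene whose reads may be shared with its partner. For Nts they were Clcn3 (0.961 and 0.833), Ndst4 (0.961 and 0.783) and Klhl13 (0.955 and 0.733). Without the 2 mice farthest from the median of each peptide gene, r was 0.751 to 0.910 for the 3 genes of Crh, 0.755 to 0.857 for those of Adcyap1 and 0.647 to 0.792 for those of Nts. They are the highest of 14370 genes compared, and the 9 points share groups and libraries.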

How the data were processed

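RNA from the mPFC of 9 mice (3 per group) was analysed. Per the study's methods and the submitters' processing notes, stranded mRNA libraries were sequenced as paired-end reads of 101 bases, aligned to mm10 with HISAT2 2.1.0 and quantified with StringTie 1.3.4d. Bowtie2 2.3.4.1 is also listed. The authors deposited 2 values per gene and mouse: the unnormalized read count, and an FPKM that corrects for the length of the transcript and the size of the library. Whether counting used the strand was not given in the sources used here.

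After adding 1 to each FPKM and taking log2, the 9 mice were quantile normalized together. Groups were compared pairwise with the moderated test of limma 3.58.1 (with a trend of variance on mean level, R 4.3.3) over the 14370 genes averaging at least 30 reads per mouse. A gene was called where the fold change exceeded 1.2 with an unadjusted p under 0.05, and the Benjamini-Hochberg adjustment covered all tested genes. With 3 mice against 3, an exact permutation test of 1 gene cannot go below p = 0.1. The read counts were also tested with DESeq2 1.42.0 and edgeR 4.0.16. Further alternatives were other filters and scalings, a replicate block, and leaving out each mouse. The fits were tested on simulated counts for WT_ST against CT, with known changes larger than any difference of the 9 tested genes. Changes as small as theirs were not simulated. The edgeR test without a filter was added after the data were seen. No 2 libraries of a group agreed within sampling noise. The methods state housing in a single cage, which does not settle whether mice shared cages, and litters are not given. The p-values set the difference between groups against the spread between the mice within them. Effects of cage or litter were not tested.

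The 10 genes and the gene lists were chosen with earlier results of these data known. Genes named are the 10 genes, the called genes of the 8 peptide lists with up to 4 further genes per list by mean FPKM, Fkbp5, and for Crh, Adcyap1 and Nts the 3 tested genes with the highest Pearson correlation over the mice. Creb1, Adcy8, Adcy9 and the marker genes were named in addition. Gene positions and upstream sequences come from RefSeq on GRCm38.p6. Python 3.11.15 and matplotlib 3.10.9 drew the figures.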

Additional observations from a re-analysis of the deposited data

How the results depend on the processing

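None of the 9 tested genes was called in any comparison under any of the 9 other settings or the 6 leave-one-out fits of each comparison. Of their 405 values under these settings, 372 kept the sign and 33 took the opposite sign, 28 of them when 1 mouse was left out, and the largest reversed value was 0.25 in size. Outside the leave-one-out fits, Crh in WT_ST against CT became -0.0029 without quantile normalization, -0.021 with edgeR and -0.021 with DESeq2, Oxtr in KO_ST against CT became -0.0096 and Npy1r in KO_ST against WT_ST became -0.0040 without quantile normalization. Leaving out each mouse in turn gave, in WT_ST against CT, -0.10 to 0.17 for Crh, -0.18 to 0.011 for Crhr1, -0.070 to 0.084 for Crhbp, -0.52 to 0.12 for Adcyap1 and -0.0056 to 0.069 for Oprl1. In KO_ST against CT the ranges were -0.093 to 0.18 for Crh, -0.19 to 0.0018 for Crhr1, -0.25 to 0.28 for Adcyap1, -0.20 to 0.14 for Oxtr, -0.14 to 0.0094 for Npy1r and -0.0093 to 0.16 for Oprk1. In KO_ST against WT_ST they were -0.064 to 0.079 for Crh, -0.071 to 0.074 for Crhr1, -0.028 to 0.46 for Adcyap1, -0.052 to 0.29 for Oxtr, -0.068 to 0.079 for Npy1r, -0.020 to 0.054 for Oprl1 and -0.041 to 0.12 for Ntsr1.

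Of the 35 other peptide genes, the 1 called in WT_ST against CT became 0 in the unmoderated linear model and ranged from 1 to 2 when 1 mouse was left out. In KO_ST against CT the count of 0 became 1 with all 9 mice in 1 fit, with edgeR and with DESeq2, and 0 to 1 leaving out each mouse. In KO_ST against WT_ST it became 2 with a pseudocount of 0.1 and with edgeR, 1 with DESeq2 and 0 to 2 leaving out each mouse. Over all genes, the 355 calls in WT_ST against CT became 544 with a pseudocount of 0.1, 164 in the unmoderated model, 535 with edgeR and 552 with DESeq2, and 277 to 544 leaving out each mouse. The 512 in KO_ST against CT became 248 in the unmoderated model. The 287 in KO_ST against WT_ST became 445 with a pseudocount of 0.1 and 138 in the unmoderated model, and 245 to 477 leaving out each mouse. The causes were not tested.

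Deviations of mice with the same replicate number in the labels correlated at -0.0101 on average (-0.259 to 0.234, above 0.1 in 2 of 9 pairs). Mice with different numbers gave 0.0049 on average. A batch shared by some of the mice was not tested. With the replicate number as a block, 0 of the 9 genes were called in each comparison, and 1, 2 (Ntsr1 and Penk) and 0 of the other peptide genes. Nts is limited by depth, at 8 to 67 reads per mouse.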
